A study of Mus musculus with 6 samples.

Results

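C/D-length snoRNAs are small nucleolar RNAs (snoRNAs) of the size class of box C/D guide RNAs. The set described here held 63 of the 1823 non-coding RNA features listed in at least 1 library. A feature was included when GENCODE M21 typed it as a snoRNA at the same start and end, it was shorter than the length limit between the C/D and H/ACA classes, and its smallest same-strand host gene was protein coding but not a ribosomal protein gene. The hosts Eif4a1, Eif4a2, Nop56, Nop58, Ncl and Dkc1, and snoRNAs with names starting Snord14 or Rnu3, were left out. GENCODE holds 83 snoRNAs that meet this rule, and 63 of them had at least 1 read. The 63 lay in 37 host genes and were 64 to 111 nt long (median 80.0 nt). The longest were Snord90 and Snord67, both of 111 nt. The shortest snoRNA beyond the length limit was Gm25520, of 118 nt, with a mean of 0.341 CPM (the read count relative to the library total).

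The libraries were small RNA-seq of mouse bone marrow, and the design text names Lin- cells, the fraction left after mature blood cells are removed. There were 2 genotypes with 3 libraries each: wild type (WT) and Mat KO, a maternal knockout (KO) at the imprinted Dlk1-Gtl2 locus according to the series' title. None of the sources used here states the extent of the deletion, the strain, the age of the mice or the number of animals behind a library, so p-values measure the spread between libraries, which may be technical. PCR products were size-selected on a gel for snoRNA inserts, so RNAs of other sizes are under-represented.

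Box C/D snoRNAs guide the methylation of ribose in ribosomal RNA (rRNA) and spliceosomal RNA. They carry a C box near the 5′ end and a D box near the 3′ end, where the core proteins, fibrillarin among them, assemble. The bases just before the D box, or before an internal copy of it, pair with the target, and the target base opposite the fifth of these is the one modified. In vertebrates most are cut from introns of host genes, many of which serve the ribosome and translation, and a host's snoRNAs share its precursor transcript.

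The sequences show how far the length rule picks out box C/D RNAs. A C box (ATGATGA or GTGATGA) was searched for in the first 25 bases and a D box (CTGA) in the last 20 bases of each RNA, on the RNA strand only. An exact C box was found in 32 of the 63 (50.8%), a C box with at most 1 mismatch in 54 (85.7%), a D box in 58 (92.1%) and both, with at most 1 mismatch in the C box, in 53 (84.1%). Both boxes were found in 91.7% of the 36 C/D-length snoRNAs of ribosomal protein hosts, in 96.7% of the 90 of non-coding hosts and in 4.04% of the 223 longer snoRNAs, the length class of H/ACA snoRNAs. The first 4 sequences below are the most abundant of the set per unit length, and the last is one that carries neither box. Sequences are from GENCODE M21 on GRCm38, 5′ to 3′, with the C and D boxes in capitals.
Gm24299: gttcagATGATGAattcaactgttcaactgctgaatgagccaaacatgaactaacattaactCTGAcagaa
Gm24494: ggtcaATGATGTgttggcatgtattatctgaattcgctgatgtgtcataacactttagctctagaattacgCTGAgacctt
Snord59a: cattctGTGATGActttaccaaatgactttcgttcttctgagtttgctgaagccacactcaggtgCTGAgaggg
Gm23008: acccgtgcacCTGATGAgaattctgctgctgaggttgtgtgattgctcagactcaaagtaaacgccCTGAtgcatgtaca
Gm23455: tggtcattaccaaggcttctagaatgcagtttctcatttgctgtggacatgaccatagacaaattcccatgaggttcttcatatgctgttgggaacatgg
Gm24299 lies at chr9:15314074-15314144 (+) in Taf1d, Gm24494 at chr3:153911610-153911690 (-) in Rabggtb, Snord59a at chr10:128084143-128084216 (+) in Atp5b and Gm23008 at chr9:20890757-20890836 (+) in Ppan. Gm23455, at chr9:15316489-15316588 (+) in Taf1d, was 77.9% to 79.5% identical to 5 snoRNAs of the H/ACA length class, and its relative Gm24610, in Mfsd13a, was 86.1% to 88.5% identical to the same 5. These boxless sequences go against the C/D label. Gm23568 and Gm24829 also had neither box, and all of these were too low to be tested. Among the members tested, Snord90, Snord88c and Snord88a had no C box within 1 mismatch in the first 25 bases, although Snord90 holds GTGATGA across the end of that window, and Snord53 had no CTGA in its last 20 bases.

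The bases before the boxes were compared with 18S rRNA. The reference was a copy of the 18S gene on chromosome 17 of GRCm38 (RefSeq Rn18s-rs5), of which positions 605 to 1849 could be read. All rRNA positions given here are counted from the start of this copy, and were not converted to those of mature 18S rRNA. A stretch of at least 10 complementary bases ending at most 3 bases before a CTGA was found in 10 of 63 members (15.9%). The share was 3 of 36 (8.33%) for ribosomal protein hosts, 1 of 90 (1.11%) for non-coding hosts and 2 of 223 (0.897%) for the H/ACA length class. In 3 hosts, 2 snoRNAs of the same gene carried stretches facing the same rRNA position. These pairs are printed with the stretch in capitals, because each shows the same guide-like segment in 2 RNAs of a host.
Snord19: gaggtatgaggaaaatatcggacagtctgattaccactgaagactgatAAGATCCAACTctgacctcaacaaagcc
Gm24916: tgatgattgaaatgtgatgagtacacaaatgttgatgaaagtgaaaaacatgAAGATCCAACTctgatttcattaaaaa
Gm23008: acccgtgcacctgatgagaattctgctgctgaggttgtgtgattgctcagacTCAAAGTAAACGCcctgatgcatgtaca
Gm24067: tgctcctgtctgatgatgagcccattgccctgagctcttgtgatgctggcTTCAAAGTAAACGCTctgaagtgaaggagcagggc
Snord59a: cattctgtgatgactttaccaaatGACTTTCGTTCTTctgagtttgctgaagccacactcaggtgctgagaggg
Mir677: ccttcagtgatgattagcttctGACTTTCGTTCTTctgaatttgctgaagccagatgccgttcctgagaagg
Both Gnl3 RNAs, Snord19 at chr14:31016206-31016281 (-) and Gm24916 at chr14:31015148-31015226 (-), held the same 11 bases before the D box, complementary to chr17:39847038-39847048 and placing position 689 opposite the fifth base. The whole RNAs were 58.2% identical. In Ppan, stretches of 13 bases in Gm23008 and 15 bases in Gm24067, at chr9:20889484-20889568 (+), both faced position 805. The Atp5b pair, Snord59a and Mir677 at chr10:128085289-128085360 (+), shared 13 bases before an internal CTGA, facing position 1037, and was 78.4% identical overall. Mir677 carries a miRNA symbol as well as a snoRNA annotation, and a miRNA feature overlaps it, so its reads could have been divided. Stretches were also found in Snord98 (position 873), Snord61 (position 1448), Gm25970 (position 1453) and the barely detected Gm24958 (position 1446). Such a match describes the letters only and does not show that the base is modified. Methylation was not measured, and 28S rRNA was not used here.

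The members took 7.05% to 7.72% of the reads of a library, and the levels of the 55 that could be tested ran from 0.276 to 35069 CPM per 100 nt, that is, CPM divided by length. By mean CPM over the 6 libraries, 10 members were at 1000 or above, 21 between 100 and 1000, 11 between 10 and 100, 10 between 1 and 10, and 11 below 1. Levels of different snoRNAs are compared only per 100 nt. Gm24299 had the highest level, at 32107, 36584 and 37100 CPM per 100 nt in the KO libraries and 36799, 32857 and 34966 in the WT libraries, each in the order of the replicate numbers, as in all such triplets here. Gm24494 followed with 24681, 21520 and 22799 in KO and 23918, 24048 and 26033 in WT. The lowest library for Gm24299 lay above the highest for Gm24494, and their highest libraries exceeded their lowest 1.16-fold and 1.21-fold. These 2 members held 59.4% to 61.6% of the members' reads, so any sum over the set is mostly theirs. The next were Snord59a (mean 7593 CPM per 100 nt), Gm23008 (3632) and Gm24357 (3310), and the range of the last, 1026 to 5613, overlapped those of both Gm23008 and the sixth in the order, Snord19 (2188 to 3339).

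**Figure D1:**
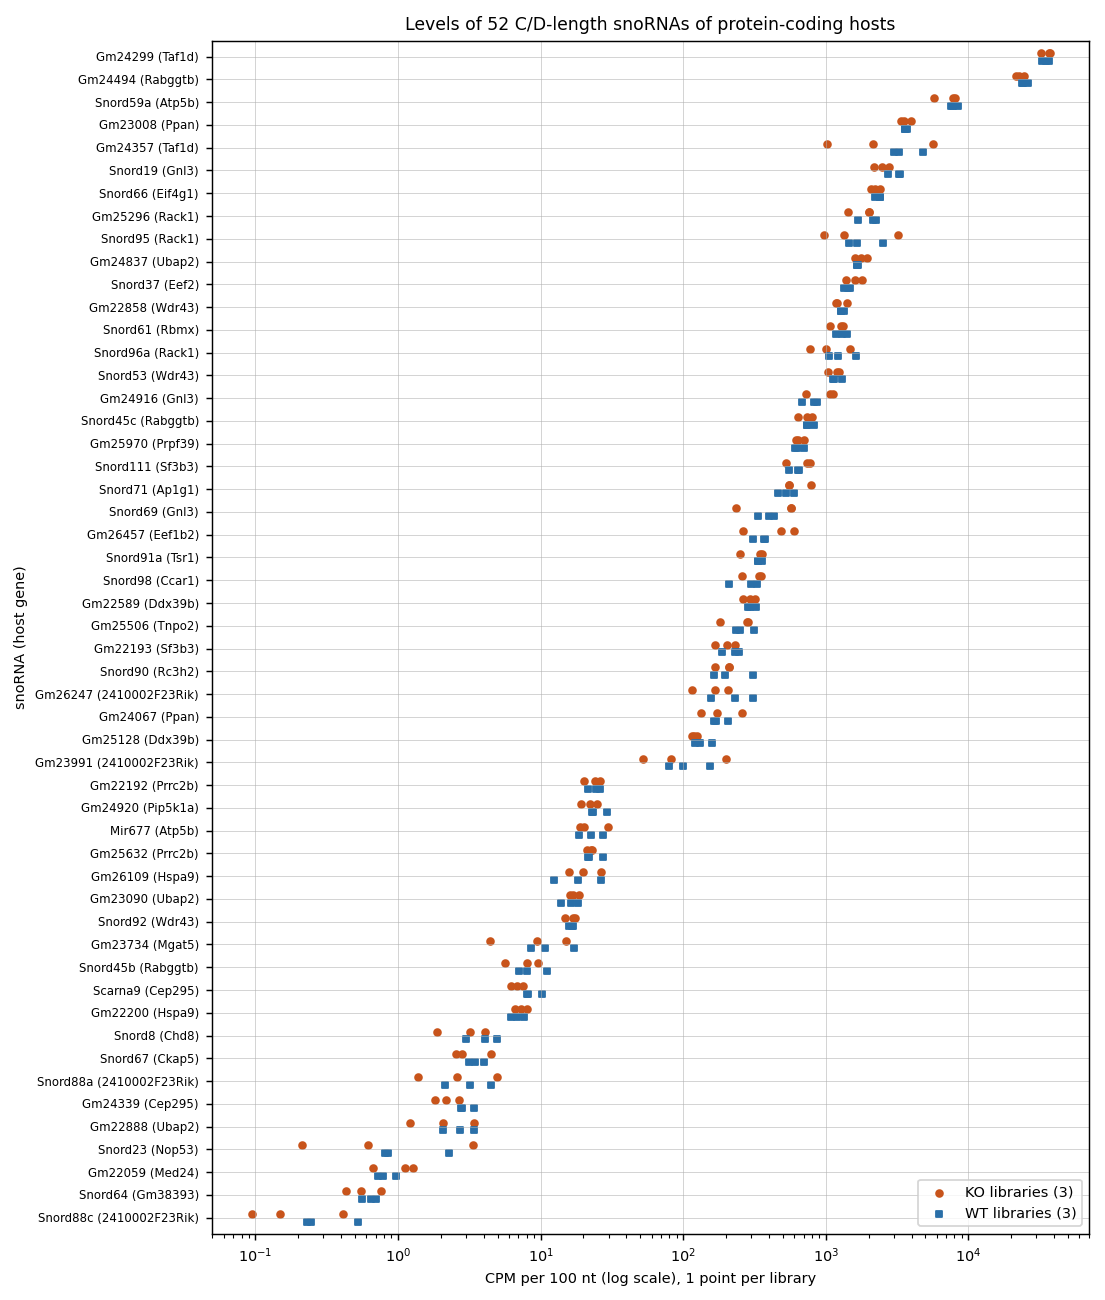
Level of 52 of the 55 tested snoRNAs in every library, as CPM per 100 nt on a log axis, ordered by mean, with KO libraries as circles and WT libraries as squares. The genotypes overlap for all RNAs but Scarna9 and Gm24339, Gm24299 and Gm24494 stand above the rest, and Gm24357 and Snord23 show wide spreads among the KO libraries.

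The comparison of KO with WT asks whether the maternal knockout at the Dlk1-Gtl2 locus, which itself encodes many C/D snoRNAs, goes with a change in C/D-length snoRNAs made elsewhere. As a check of the labels, the 10 snoRNA features between Dlk1 and Dio3 summed to 3, 2 and 2 counts in the KO libraries and 87, 106 and 94 in the WT libraries. Total counts ran from 45398303 to 53299322. Protein markers of blood lineages are not measured by this assay. The erythroid markers Mir451a and Mir486a matched no listed feature by name, and Mir486 was looked at as well. Of the 8 marker miRNA features found, none was at 0, and 2 did not overlap between genotypes. Both were higher in KO, a pattern found in 2.72% of all features tested. Mir126a, of stem and progenitor cells, was at 5.65 to 17.4 CPM in KO and 0.544 to 5.40 in WT, a narrow gap. Mir150, of lymphoid cells, was at 4.002 to 6.09 and 0.694 to 3.19. The myeloid Mir223 was at 13.5 to 21.1 CPM in KO and 8.61 to 19.1 in WT, the erythroid Mir144 at 0.169 to 0.752 and 0.176 to 0.236. The genotypes also overlapped for Mir142, Mir181a-1, Mir181a-2 and Mir486. WT replicate 1 was the lowest library for every marker miRNA but Mir144. The part of cell composition in the values below was not tested, and in bulk RNA fewer cells of a type and less RNA per cell cannot be told apart.

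No member passed the test for a difference between the genotypes. Of the 63, 55 passed the filter on low counts, and edgeR's quasi-likelihood test called 0 of 55 at an adjusted p under 0.05, where 0.16% of all 624 tested features were called. None of the 55 reached an unadjusted p under 0.05 (6.41% of all features), and DESeq2 also gave 0 on both counts. The smallest adjusted p by edgeR was 0.730. The estimates split into 27 lower and 28 higher in KO, from -0.52 (Snord88c) to 0.42 (Gm26457) on the log2 scale, with a median of 0.01 against -0.08 over all features tested. This even split depends on the scaling: edgeR with RLE size factors gave 14 lower and 41 higher, as did DESeq2, and library size alone gave 36 lower and 19 higher. The members' median lay above the median of all features by 0.06 to 0.16 under every alternative run. A change of scaling moves both medians together and the runs share libraries, so this does not show that the gap is robust.

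The precision of the comparison differed widely between members. Standard errors (SE) of the log2 fold changes ran from 0.08 to 0.97 (median 0.22). For 41 of 55 members the 95% interval lay within a 2-fold change either way, and for 21 of 55 within 1.5-fold. For the remaining 14 members the interval reached past a 2-fold change, so these libraries do not exclude a difference of that size for them. Gm24299 had a log2 fold change of 0.08 (interval -0.11 to 0.27) and Gm24494 one of -0.03 (-0.26 to 0.19), while Gm24357, from the same host as Gm24299, could not be placed more closely than -1.65 to 1.14.

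**Figure D2:**
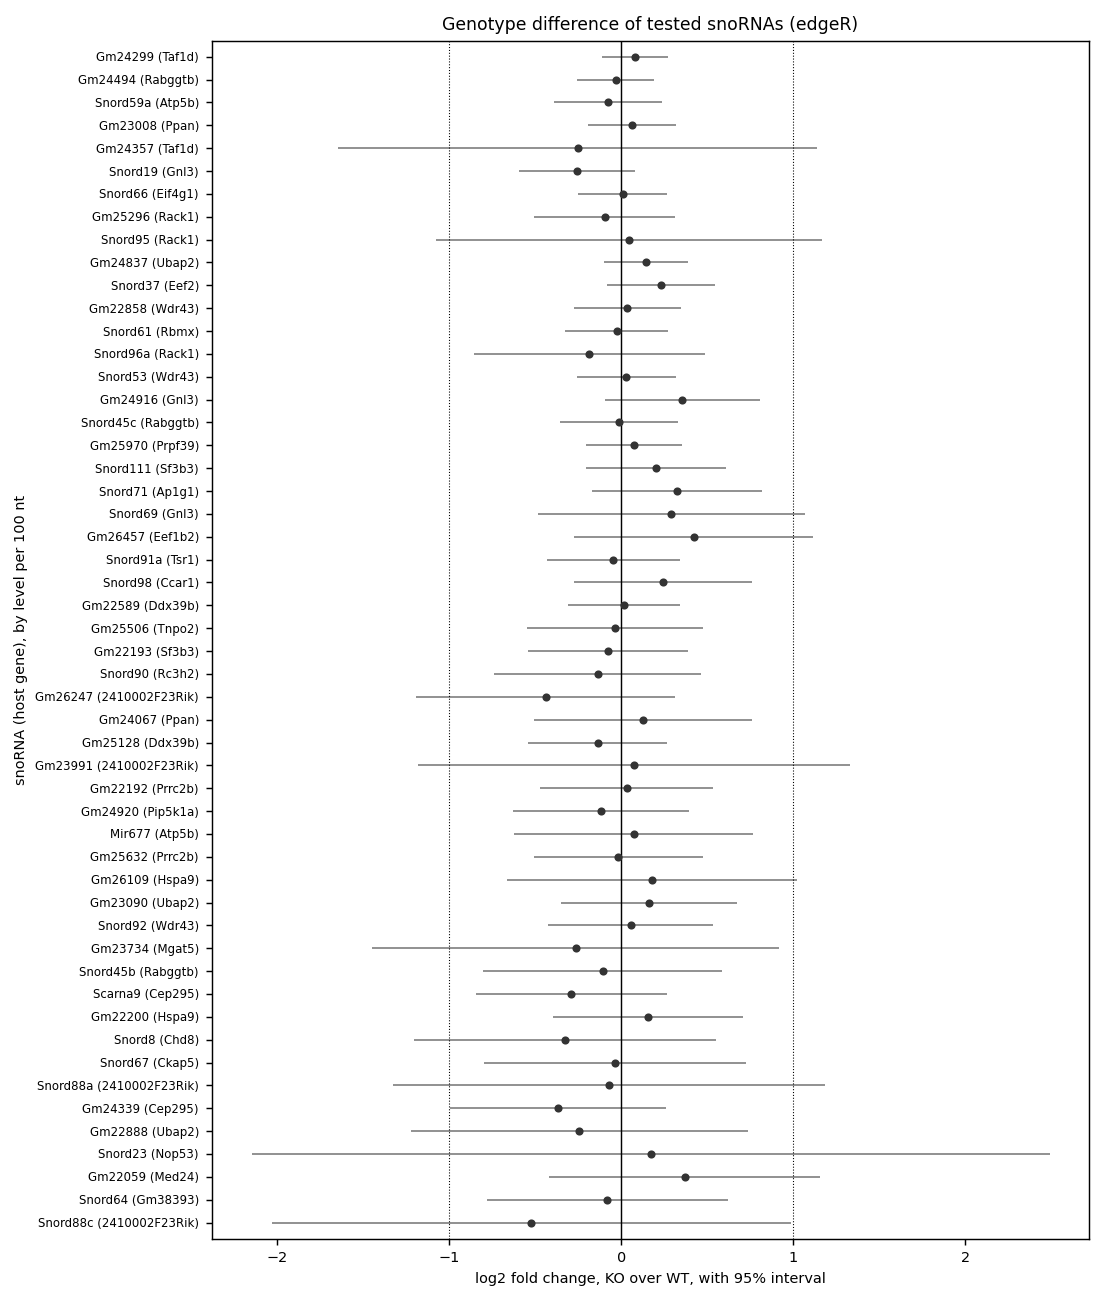
Log2 fold change of KO over WT for 52 of the 55 tested snoRNAs with 95% intervals from edgeR, ordered by level per 100 nt, with dotted lines at a 2-fold change. Every interval includes 0, and the estimates fall on both sides of it, 26 below and 26 above.

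As a set the members summed to 71941 ± 1442 CPM in KO and 74692 ± 3106 CPM in WT (SD, n = 3 each), which did not differ beyond the spread between libraries (exact two-sided permutation p = 0.3; the smallest possible is 0.1). Relative to all C/D-length snoRNA reads their share was 7.64 ± 0.20% in KO and 8.04 ± 0.32% in WT (SD, n = 3 each; exact two-sided permutation p = 0.3). The denominator itself did not overlap between the genotypes: all C/D-length snoRNAs took 93.5% to 95.01% of the reads in KO and 92.7% to 93.2% in WT (exact two-sided permutation p = 0.1, n = 3 each). The members' values overlapped in both measures: the highest KO library, at 73330 CPM, lay above the lowest WT library, at 71211 CPM. The neighbouring classes gave similar medians, 0.00 for the 34 tested C/D-length snoRNAs of ribosomal protein hosts (17 lower, 17 higher) and 0.04 for the 42 of non-coding hosts (17 lower, 25 higher, 1 called lower). The class of non-coding hosts was not limited to RNAs outside the Dlk1-Gtl2 locus. Its lowest estimate, -5.50, was also the lowest of all features tested. The 148 tested snoRNAs of the H/ACA length class had a median of -0.27, with 123 lower and 25 higher and none called.

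In 2 of the 55 members (3.64%) the KO and WT libraries did not overlap, against 15.2% of all features tested. Both were lower in KO (12.5% of all features) and none was higher (2.72%), so neither share was above the background. Both are in Cep295, which encodes a centriole protein, and lie in the same 463-nt intron. They share a precursor transcript, so they are not 2 independent cases, and whether they are parts of the same RNA was not tested. They are shown because they are the only members with this pattern, and were singled out after their values were seen.
Scarna9: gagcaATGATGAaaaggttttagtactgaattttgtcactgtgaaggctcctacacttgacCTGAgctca
Gm24339: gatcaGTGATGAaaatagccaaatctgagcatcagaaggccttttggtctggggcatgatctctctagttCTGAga
Scarna9, at chr9:15326264-15326333 (-), had 4.33, 5.31 and 4.76 CPM in KO and 7.11, 5.73 and 5.61 CPM in WT. Gm24339, at chr9:15326464-15326539 (-), had 1.65, 1.39 and 2.05 CPM in KO and 2.61, 2.11 and 2.13 CPM in WT. Every KO library lay below every WT library for both, by a narrow margin. Neither passed the test, with log2 fold changes of -0.29 (SE 0.23) and -0.37 (SE 0.26).

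Hosts that act in ribosome biogenesis carried 14 members and 48.8% of the members' reads. They are Taf1d, a subunit of the RNA polymerase I initiation factor, Ppan, Wdr43, Tsr1, Nop53 and Gnl3 (nucleostemin), a nucleolar GTP-binding protein. Of the 12 tested members, 3 had estimates below 0 and 9 above, none was called, and the median was 0.06. Splits by host group, here and below, are from the main scaling and can move with it, as that of the whole set did. Values of 1 RNA across libraries are in CPM without the length correction.

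Gm24299 of Taf1d had 22796, 25975 and 26341 CPM in KO and 26128, 23328 and 24826 CPM in WT. Its neighbour Gm24357, at chr9:15315522-15315595 (+), had 4154, 759 and 1585 CPM in KO and 2219, 2405 and 3573 CPM in WT. The 3 KO libraries of Gm24357 thus covered the whole range of the WT libraries and beyond, while those of Gm24299 stayed within a narrow band. In Ppan, Gm23008 had 2697, 3180 and 2821 CPM in KO and 2973, 2893 and 2868 CPM in WT, and Gm24067 lay between 114 and 219 CPM. In Wdr43, Gm22858 lay between 903 and 1073 CPM and Snord53 between 811 and 1015 CPM, with both genotypes overlapping and log2 fold changes of 0.03 for each.

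The estimates of the Gnl3 RNAs lay on both sides of 0, and none passed the test. Snord19 had 2125, 1663 and 1879 CPM in KO and 2484, 2538 and 2074 CPM in WT, with a log2 fold change of -0.26 (SE 0.14). Gm24916 had 576, 888 and 845 CPM in KO and 657, 539 and 689 CPM in WT (0.36, SE 0.19), and Snord69 had 188, 453 and 459 CPM in KO and 322, 345 and 266 CPM in WT (0.29, SE 0.33). For each of the 3 RNAs the genotypes overlapped, and KO replicate 1 was the library that made them overlap: it was the highest KO library for Snord19 and the lowest for the other RNAs. No difference between the RNAs of a host was tested.

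Translation factors and the ribosome-bound protein Rack1 hosted 6 members with 8.88% of the members' reads. Of these, 2 had estimates below 0 and 4 above, with a median of 0.02. Eef2 and Eef1b2 encode elongation factors and Eif4g1 the scaffold of the cap-binding complex. Snord66 of Eif4g1 had 1565, 1805 and 1661 CPM in KO and 1791, 1788 and 1663 CPM in WT. Snord37 of Eef2 had 885, 1148 and 1035 CPM in KO and 921, 865 and 945 CPM in WT (0.23, SE 0.13). Snord66 was even across the libraries, its highest being 1.15 times its lowest. For Snord37, KO replicates 2 and 3 lay above all WT libraries, and KO replicate 1 lay within their range. Gm26457 of Eef1b2 had the highest estimate of the set, 0.42 (SE 0.29), from 206, 470 and 379 CPM in KO and 294, 241 and 288 CPM in WT. KO replicate 1 lay below all WT libraries, and the other KO libraries lay above them.

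Rack1 carries a near-identical pair, Gm25296 at chr11:48800866-48800932 (+) and Snord95 at chr11:48803139-48803206 (+), printed here because which of them was the more abundant differed between libraries. They differ by 6 edits and are 91.2% identical.
Gm25296: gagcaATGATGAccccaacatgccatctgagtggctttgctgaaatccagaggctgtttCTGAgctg
Snord95: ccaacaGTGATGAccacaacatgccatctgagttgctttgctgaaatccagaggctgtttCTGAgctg
Snord95 had 2178, 660 and 909 CPM in KO and 994, 1131 and 1719 CPM in WT, while Gm25296 had 960, 1339 and 1348 CPM in KO and 1504, 1124 and 1442 CPM in WT. Per 100 nt, the ratio of Snord95 to Gm25296 was 2.23 in KO replicate 1 and 0.486 in KO replicate 2, with the WT libraries at 0.651, 0.991 and 1.17. In KO replicate 1 Snord95 was the more abundant, and in KO replicate 2 Gm25296. Reads could have been divided between such similar RNAs in a way the sources used here do not state. Snord96a, the third Rack1 RNA, had 1195, 628 and 813 CPM in KO and 988, 850 and 1314 CPM in WT, with WT replicate 3 highest and KO replicate 2 lowest.

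Genes for mRNA processing and RNA-binding proteins, among them Rbmx, Sf3b3, Prpf39, Ddx39b, Ccar1, Rc3h2 and Prrc2b, hosted 13 members, all tested, with 4.15% of the members' reads, 6 lower and 7 higher and a median of 0.02. Their most abundant RNA, Snord61 of Rbmx, an hnRNP protein, had 757, 906 and 940 CPM in KO and 1004, 845 and 924 CPM in WT. The estimates of this group spanned -0.14 to 0.24. Prrc2b carries a pair of identical copies, Gm22192 and Gm25632. Gm24920 in Pip5k1a differs from the Prrc2b copies by 1 edit. The copies had like levels, 20.2 and 19.4 CPM. Single values of such copies are uncertain because reads of 1 could have been counted for the other. In all, 8 members have an identical or overlapping feature.

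Transport hosts held 6 members with 28.1% of the members' reads, nearly all from Gm24494 of Rabggtb, a subunit of the enzyme that attaches lipid anchors to Rab proteins. Of the 5 tested, 4 had estimates below 0 and 1 above, and 3 of the 5 were from Rabggtb. With RLE size factors Gm24494 turned to 0.07 and Snord45c to 0.09, while Snord45b was at -0.002. Gm24494 had 19991, 17431 and 18467 CPM in KO and 19373, 19479 and 21087 CPM in WT. Snord71 of Ap1g1, an adaptor subunit for clathrin coats, had 669, 469 and 474 CPM in KO and 395, 445 and 511 CPM in WT (0.33, SE 0.21), with KO replicate 1 as the highest library. For both RNAs the genotypes overlapped.

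Mitochondrial hosts (Atp5b, a subunit of ATP synthase, and the chaperone gene Hspa9) held 4 members with 7.71% of the members' reads, 1 lower and 3 higher. Snord59a of Atp5b had 4257, 5816 and 5974 CPM in KO and 6299, 5616 and 5750 CPM in WT (-0.08, SE 0.13), with KO replicate 1 alone below the rest. Ubap2, a ubiquitin-associated protein gene, held 3 members with 1.92% of the reads. Gm24837 there had 1423, 1297 and 1577 CPM in KO and 1372, 1348 and 1345 CPM in WT (0.14, SE 0.10).

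The remaining 12 hosts held 17 members with 0.458% of the members' reads. Of the 12 tested, 10 had estimates below 0 and 2 above (median -0.19), none called. These are not 12 separate cases, as 4 came from 2410002F23Rik and 2 from Cep295. Snord88c, Snord64 and Gm22059 were below 1 CPM. The uncharacterised gene 2410002F23Rik carries 4 related RNAs. Gm26247 had 189, 105 and 153 CPM in KO and 210, 143 and 281 CPM in WT (-0.44, SE 0.32), and Gm23991 had 185, 48.6 and 77.0 CPM in KO and 73.9, 93.4 and 144 CPM in WT (0.08, SE 0.53). Snord88a lay between 1.23 and 4.44 CPM and Snord88c between 0.0846 and 0.473 CPM. All 4 had KO replicate 1 above the other KO libraries. Gm23734 of Mgat5, an enzyme of N-glycan branching, had 16.5, 4.78 and 10.3 CPM in KO and 11.7, 9.30 and 18.8 CPM in WT (-0.27, SE 0.50). It is 88.2% identical to Snord8 of Chd8, which lay between 2.06 and 5.48 CPM.

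The 8 members too low for the test were Gm24431, Snord107, Gm23455, Gm24958, Gm24610, Gm23568, Gm22771 and Gm24829. None had more than 8 counts in a library or more than 27 in all 6. Snord107 lies with the tested Snord64 in Gm38393, at a mean of 0.0908 and 0.407 CPM. Gm23568 and Gm24829 are identical copies.

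Levels differed widely among the RNAs of some hosts and little among those of others. Of the 37 hosts, 17 carried at least 2 members, 43 in all. In Rabggtb, Gm24494 exceeded Snord45b 2160-fold to 4379-fold per 100 nt and Snord45c 30.6-fold to 33.9-fold, in each of the 6 libraries. The 3 Rabggtb RNAs are shown because their ends are nearly alike while their levels are not, and Gm24494 and Snord45c are 80.2% identical.
Gm24494: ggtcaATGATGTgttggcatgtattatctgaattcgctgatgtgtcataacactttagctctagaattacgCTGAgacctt
Snord45c: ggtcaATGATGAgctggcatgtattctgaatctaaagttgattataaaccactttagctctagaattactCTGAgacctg
Snord45b: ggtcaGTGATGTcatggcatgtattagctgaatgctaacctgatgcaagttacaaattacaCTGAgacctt
Snord45c lies at chr3:153912125-153912204 (-) and had 646, 507 and 587 CPM in KO and 590, 591 and 661 CPM in WT. Snord45b, at chr3:153910563-153910633 (-), had 4.002, 5.69 and 6.85 CPM in KO and 7.86, 5.0002 and 5.69 CPM in WT. The order Gm24494, Snord45c, Snord45b held in all 6 libraries. Of these RNAs only Snord45c has a C box with no mismatch to the search letters, and its level was between those of the others.

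Several other hosts showed wide gaps. The ratio of the highest to the lowest tested RNA per 100 nt was 502 to 1795 in 2410002F23Rik (Gm26247 over Snord88c), 493 to 1457 in Ubap2 (Gm24837 over Gm22888), 193 to 454 in Atp5b (Snord59a over Mir677), 68.6 to 85.0 in Wdr43 (Gm22858 over Snord92) and 15.5 to 25.2 in Ppan. In Taf1d it was 5.72 to 35.7 and in Gnl3 3.86 to 11.9. Snord88c had only 4 to 24 counts in a library and Gm22888 45 to 141, so the ratios over these RNAs are imprecise. Narrower gaps were found in Sf3b3 (2.27 to 4.60), Cep295 (2.52 to 4.15), Hspa9 (2.004 to 3.47) and Ddx39b (2.04 to 2.56). In Rack1 the ratio of Gm25296 to Snord96a was 0.971 to 2.58, so their order was not the same in every library, and the identical Prrc2b copies had ratios of 0.957 to 1.16. The Ppan and Atp5b pairs, whose guide-like stretches face the same rRNA position, thus differed at least 15.5-fold in level, and the Gnl3 pair, Snord19 over Gm24916, 1.95-fold to 4.90-fold. These ratios can also reflect how well each RNA is ligated, amplified and assigned, which was not tested.

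**Figure D3:**
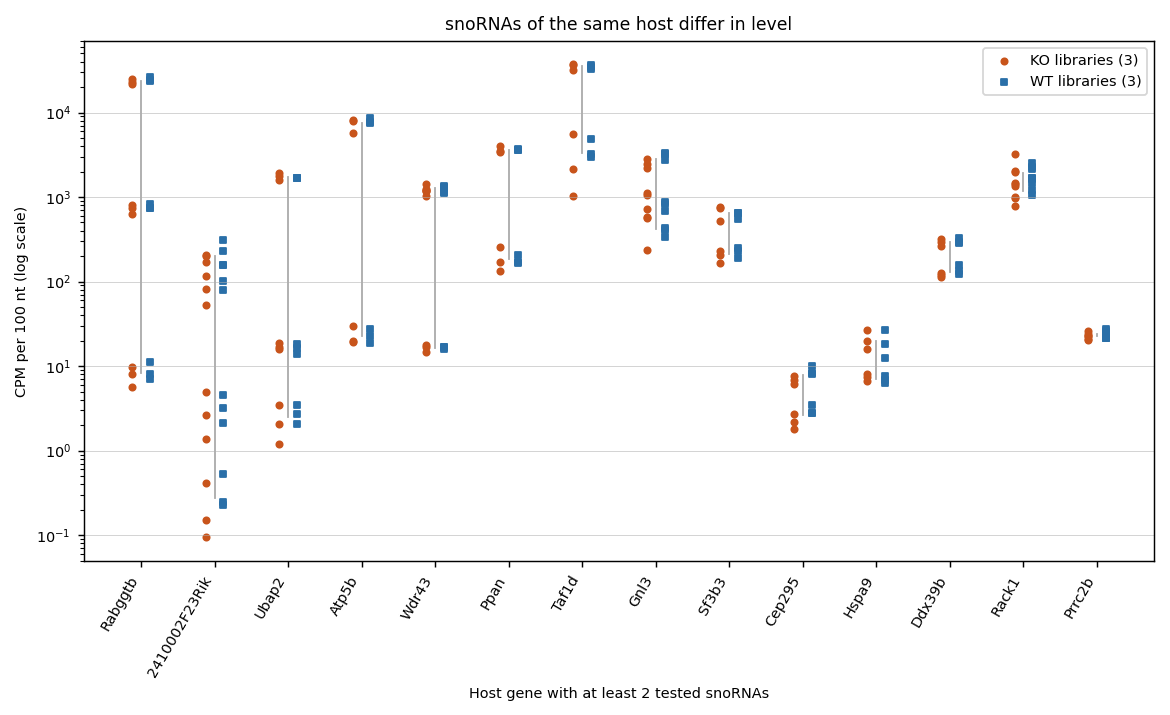
CPM per 100 nt on a log axis for the snoRNAs of 14 hosts with at least 2 tested members, 1 point per library, KO as circles and WT as squares, hosts ordered by the gap between their highest and lowest RNA. In Rabggtb the gap is at least 2160-fold in every library, in Prrc2b the identical copies lie together, and the genotypes overlap for every RNA drawn except both of Cep295.

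By position, 43 members lay in an intron of every transcript of the host that covers them and 20 in an intron or an exon depending on the transcript. The distance from the 3′ end of the snoRNA to the next exon was 59 to 7796 nt, with a median of 330 nt. It was 80.5 nt for the 36 snoRNAs of ribosomal protein hosts and 582 nt for the 83 of non-coding hosts with an intron. Of the members, 18 of 63 (28.6%) lay within 100 nt of the next exon, all at 59 to 94 nt, against 66.7% for ribosomal protein hosts and 36.1% for non-coding hosts. All 18 were tested, with a median level of 329 CPM per 100 nt against 29.3 for the 37 tested members farther away. Both sets spanned most of the range: Snord88c, at 79 nt, was the lowest tested member, and Gm24494, at 721 nt, the second highest. Across the 55 tested members Spearman's rho between distance and level was -0.18, over RNAs that share libraries and in part hosts. The limit of 100 nt was chosen after the distances were seen.

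**Figure D4:**
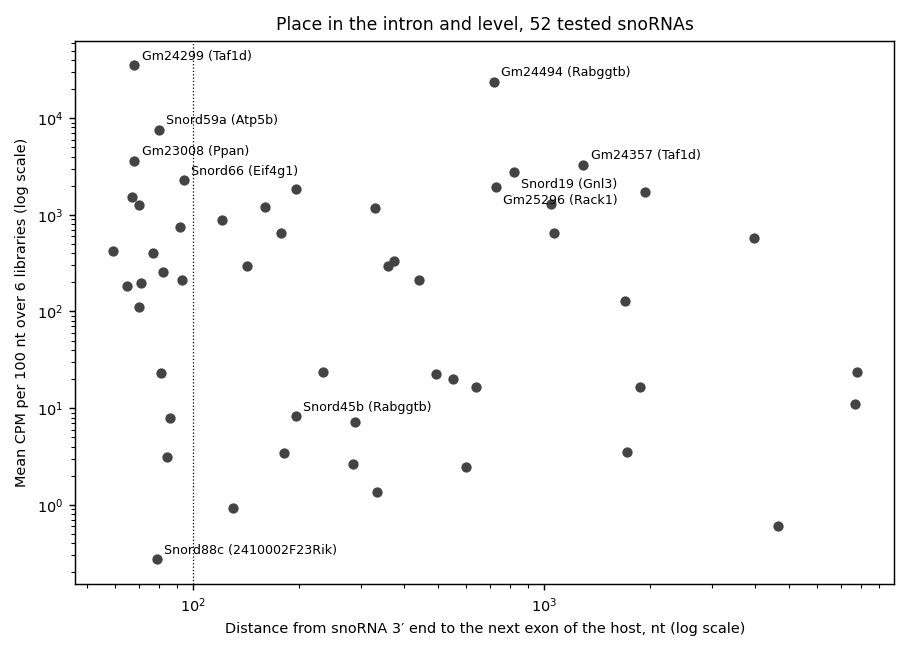
Distance from the 3′ end of 52 of the 55 tested snoRNAs to the next exon of its host (log axis, nt) against its mean level in CPM per 100 nt (log axis), with a dotted line at 100 nt. The 18 snoRNAs left of the line include Gm24299 and Snord59a at the top and Snord88c at the bottom, and Gm24494 lies to the right at 721 nt.

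The largest variation of the members was between libraries of the same genotype. The coefficient of variation of CPM had a median of 17.7% in KO and 13.6% in WT, below the 27.7% and 20.9% of all features tested. In the other C/D-length classes it was lower still, at 13.9% and 12.4% for ribosomal protein hosts and 14.3% and 10.5% for non-coding hosts. For 24 of 55 members the highest library was less than 1.5 times the lowest, and for 14 it was more than 2 times. The first principal axis of the members' log2 levels held 73.5% of their variance, with KO replicate 1 (0.58) and KO replicate 2 (-0.65) at opposite ends and WT replicate 3 (0.41) nearest to KO replicate 1. The KO libraries thus stood at both ends of this axis, with the WT libraries between them. RNAs of wide range, such as Snord23, weigh most in such an axis, so it need not describe most members. KO replicate 1 was the lowest library for 21 of 55 members and the highest for 11.

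KO replicate 1 exceeded KO replicate 2 more than 2-fold for 8 members, and the reverse held for 2. Snord23 of Nop53 had the widest range, 15.8-fold, from 177, 12 and 32 counts in KO and 47, 42 and 127 counts in WT. Snord23 and Gm24357 were both highest in KO replicate 1, followed by WT replicate 3, and lowest in KO replicate 2. The log2 ratio of KO replicate 1 to KO replicate 2 had a median of 1.12 for the 11 tested members of 90 nt or more, -0.19 for the 44 shorter ones and 0.71 for the H/ACA length class. Across the 55 members Spearman's rho of this ratio was 0.40 with length and 0.49 with GC content, as a description over RNAs that share both libraries. Gm24357 (74 nt) and Snord95 (68 nt) followed the longer RNAs, and Snord90 (111 nt) and Snord91a (93 nt) did not. The 11 members of 90 nt or more include the 4 related RNAs of 2410002F23Rik and the similar Snord8 and Gm23734. Several of the 11 were at a few CPM or less. The split at 90 nt was chosen after the values were seen, and the part of RNA size selection in this pattern was not tested. Without KO replicate 1, edgeR gave 7 of 55 members (12.7%) an unadjusted p under 0.05, against 121 of 662 features tested (18.3%), and called 0 members, with a smallest adjusted p of 0.177.

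**Figure D5:**
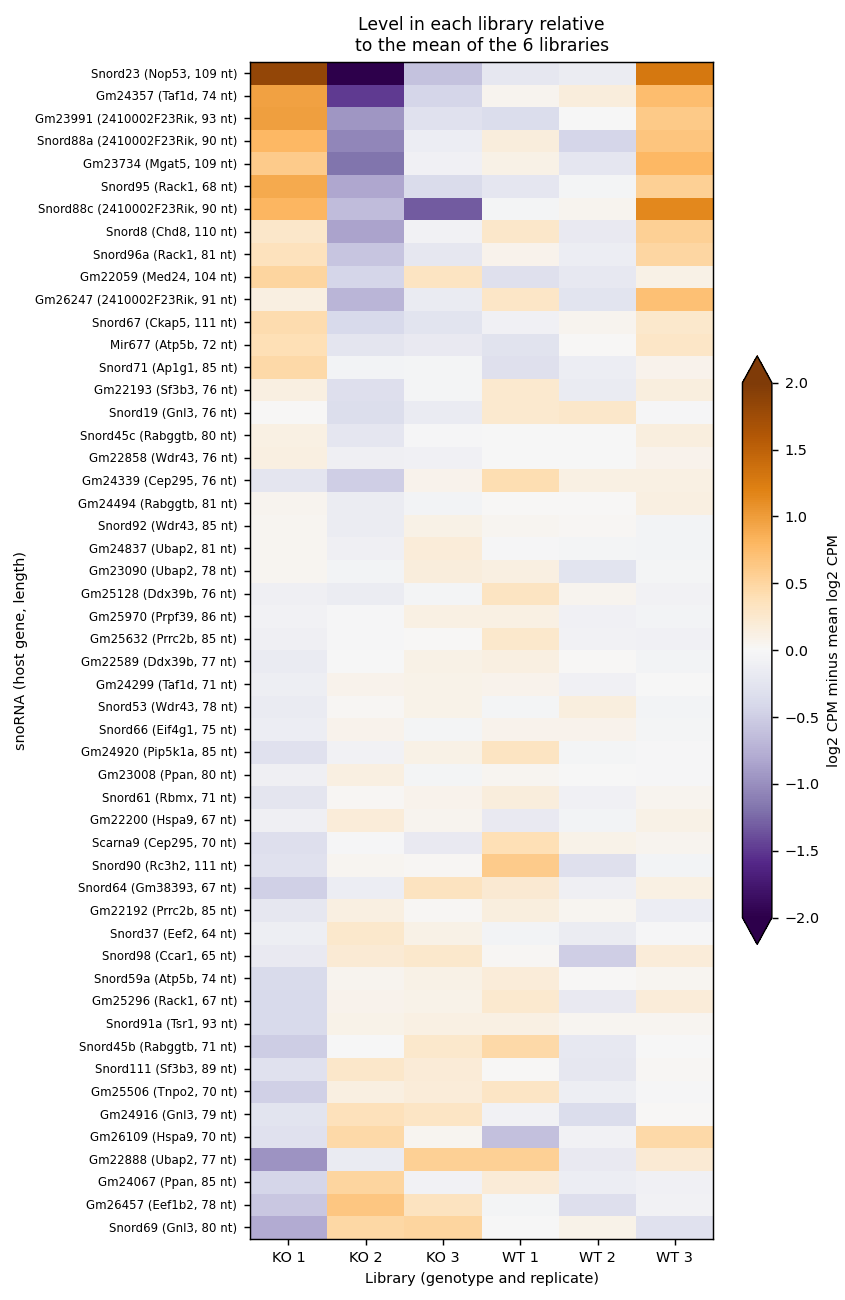
Log2 CPM of 52 of the 55 tested snoRNAs in each library minus its mean over the 6 libraries (colour, from -2 to 2), ordered by the ratio of KO replicate 1 to KO replicate 2, with host and length beside each name. KO replicate 1 and WT replicate 3 share the high values at the top, KO replicate 2 is low there, and the lower rows show small differences with KO replicate 1 lowest for many.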

How the data were processed

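Small RNA was sequenced from 3 KO and 3 WT libraries of mouse bone marrow cells, grouped by title. The authors deposited read counts per feature, 1 table per library, listing features with at least 1 read, and features absent from a library's table were taken as 0. Trimmomatic 0.38, Bowtie2 2.3.4.1 and GRCm38 are named per the submitters' processing notes. None of the sources used here states the counting tool, annotation, strand setting or treatment of reads with several matches. Features were matched by position to GENCODE M21, which also gave hosts and sequences.

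Counts were tested over all features with edgeR 4.0.16 in R 4.3.3 (quasi-likelihood, TMM, default filter with minimum count 10 and minimum total 15, genotype only, two-sided, Benjamini-Hochberg over 624 features, threshold 0.05). Log2 fold changes are KO over WT, with approximate SE. DESeq2 1.42.0, other scalings and filters, a replicate block and leaving out each library were alternatives. On counts simulated for the KO and WT libraries over 624 features, with 200 changed, edgeR called 35.7% of the 2-fold changes, 91.2% of the 4-fold ones and 100% of the 32-fold ones. The adjusted p is stricter where fewer features change, so these shares can overstate recovery in the data, where 1 of 624 was called. CPM used library totals of 45398303 to 53299322. Replicates differed by more than sampling noise (chi-square per degree of freedom 530 to 3308).

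The members and lists were chosen with earlier results of these data known. Named members were the 15 highest per 100 nt, the 4 highest and 4 lowest fold changes among members of at least 10 CPM, the members of the 4 hosts with the most tested members, and any called. Others are named as examples chosen after their values were seen, as were the box windows, the stretch rule and the pairs. Results of 1 host gene are not reported here or drawn, and its snoRNAs are included in the counts.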

Additional observations from a re-analysis of the deposited data

How the results depend on the processing

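Members called stayed at 0 under every alternative run, DESeq2, the replicate block and members under 100 nt included. edgeR with RLE size factors gave 2 of 55 members (3.64%) an unadjusted p under 0.05, against 47 of 624 features (7.53%). Features called over the whole table were 1 in the main analysis, 13 with no filter, 0 with the replicate block and 0 to 1 when 1 library was left out. The members' median log2 fold change, 0.01, became 0.12 with RLE size factors and with DESeq2, -0.059 with library size alone, 0.085 with at least 50 counts in 3 libraries, 0.083 with identical or overlapping features summed and 0.034 to 0.14 when 1 library was left out. The split of lower and higher estimates, 27 and 28, became 26 and 37 with no filter, 17 and 35 with at least 50 counts, 19 and 34 with features summed, 29 and 26 with scaling on C/D-length snoRNAs, and 10 and 45 without WT replicate 3. The log2 ratio of the members' summed level, -0.05, turned to 0.012 with TMM effective library sizes (exact permutation p = 0.7). Of 363 alternative log2 fold changes of the 26 named members, 31 moved by more than 1 SD between replicates and 66 changed sign. The cause was not tested.

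The shared replicate numbers did not pair the libraries: same-numbered KO and WT libraries had correlations of -0.13, 0.40 and -0.36 in their deviations, and KO replicate 1 correlated best with WT replicate 3 (0.59). With the replicate block, the members' median was -0.02, the log2 ratio of their summed level was -0.05 (exact permutation p = 0.25, the smallest that design allows) and that of their share was -0.07 (exact permutation p = 0.25).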
